A study of Mus musculus with 12 samples.

Results

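The Fos and Jun genes measured here are Fos, Fosb, Fosl2, Jun, Junb and Jund, in the prefrontal cortex of mice that differ in Fyn, a Src-family tyrosine kinase. They are 6 of the 18193 genes that the platform annotation names for a probe set of this array, and they were taken by symbol. Every probe set annotated to a single one of these symbols was kept, 9 of the 45037 on the array without its control probe sets. Fosl2, Jun and Jund have 2 probe sets each and the other genes have 1 each. Of the 9 probe sets, 8, from all 6 genes, were among the 24770 kept by a filter on low mean signal and were tested.

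Messenger RNA was measured on 12 Affymetrix mouse oligonucleotide arrays, in 4 groups of 3 arrays, each array holding RNA pooled from 3 mice. Control mice were of the stock B6129SF2/J, and Fyn-null mice were of the stock B6;129S7-Fyntm1Sor/J, in which Fyn is disrupted from conception and in every cell type. All were adult males, labelled as 12 weeks old, which in the study's methods is the age at arrival before further housing, and all had been habituated with intraperitoneal saline for 3 days. On the next day each mouse was given saline or 3 g/kg ethanol by the same route, and tissue was taken 4 h later. According to the study's text, its prefrontal dissections also held neighbouring motor cortex. Since the genotypes were bred as different stocks, what Fyn does and what the stocks differ in otherwise cannot be told apart here.

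The members encode basic leucine zipper proteins that pair as Jun with Jun or Jun with Fos to form AP-1, a transcription factor that binds DNA at AP-1 and cyclic AMP response sites. Fos, Fosb and Junb are classic immediate early genes of neurons, transcribed within minutes of synaptic activity through calcium and mitogen-activated protein kinase signalling and soon shut off again. Jun is also induced by stress-activated kinases and can activate its own promoter, while Jund is expressed at high level in resting cells. Fos proteins cannot pair with each other, so a Fos protein needs a Jun partner to bind DNA.

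The promoters of Fos and Jun, whose signals moved in opposite directions after ethanol, and of Junb, another immediate early gene, are printed from RefSeq (mouse build GRCm38.p6), from 250 bases before to 50 bases after the annotated start, 5' to 3' on the gene's own strand. Capitals mark matches to motifs searched on both strands: the cyclic AMP response half-site TGACG, the TATA box TATAAA, the CCAAT box CCAAT, the Jun-type AP-1 site TGACATCA and the MEF2 core TATTTTTA.
Fos promoter, chr12:85473640-85473939, plus strand: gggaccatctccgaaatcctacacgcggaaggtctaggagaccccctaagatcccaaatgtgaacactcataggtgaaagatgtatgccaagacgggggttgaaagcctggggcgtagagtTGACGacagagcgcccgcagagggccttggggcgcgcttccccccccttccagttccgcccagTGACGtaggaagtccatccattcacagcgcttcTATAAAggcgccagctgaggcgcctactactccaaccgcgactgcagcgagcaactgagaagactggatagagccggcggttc
Junb promoter, chr8:84978699-84978998, minus strand: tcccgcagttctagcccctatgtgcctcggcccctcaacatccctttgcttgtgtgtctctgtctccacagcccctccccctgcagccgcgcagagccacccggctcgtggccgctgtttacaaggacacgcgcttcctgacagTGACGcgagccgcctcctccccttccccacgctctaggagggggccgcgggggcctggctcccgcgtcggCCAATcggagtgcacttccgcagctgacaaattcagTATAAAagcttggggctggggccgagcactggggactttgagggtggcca
Jun promoter, chr4:95052173-95052472, minus strand: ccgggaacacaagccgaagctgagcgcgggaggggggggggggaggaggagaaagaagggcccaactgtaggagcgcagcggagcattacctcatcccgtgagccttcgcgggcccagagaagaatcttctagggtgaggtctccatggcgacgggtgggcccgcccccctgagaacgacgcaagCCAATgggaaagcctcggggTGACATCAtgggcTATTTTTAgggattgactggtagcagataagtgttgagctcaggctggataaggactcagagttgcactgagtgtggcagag

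The Fos window held 2 TGACG half-sites, whose first bases lay at -129 and -66 from the start, and a TATA box at -33. Half-sites occurred once in the Junb window, at -106, and once in the Fosb window, at -60. The TATAAA match of the Junb window lay at 1 to 6, on the annotated start itself and not before it. The Jun window held no TGACG, but it had a TGACATCA site at -45 and a MEF2 core at -32. Of 32851 RefSeq windows of this length, TGACG was found in 20.8%, TATAAA in 13.6%, CCAAT in 37.4%, TGACATCA in 3.62% and TATTTTTA in 2.72%. The full sites TGACGTCA (in 1.79% of windows) and TGACTCA (in 5.2%) were not among the letters of the 6 members' windows, and no match overlapped another. The Fosl2 and Jund windows held none of the 7 motifs. These motifs were chosen with the response of the genes known, and a match is a description of the letters only.

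Before the members are compared, 2 saline pools stand apart from their labels. The Fyn probe set with the higher signal lay between 9.31 and 9.70 (log2 units) in the other control pools and between 8.64 and 9.01 in the other Fyn-null pools. Among the pools labelled control, saline replicate 2 read 8.74, inside the range of the other genotype. Among those labelled Fyn-null, saline replicate 4 read 9.45, again inside the range of the other genotype. On the other Fyn probe set the genotypes overlapped: the remaining control pools lay between 7.65 and 7.95 and the remaining Fyn-null pools between 7.50 and 7.81, with these 2 pools at 7.53 and 7.75. Fyn-null saline replicate 4 thus lay inside both ranges on that probe set. Which part of Fyn these probes read relative to the disruption was not analysed here. Results are therefore given with and without these pools. The markers of cortical excitatory neurons Slc17a7, Neurod6, Tbr1 and Fezf2 were present, at mean signals in the 87.6th to 97.2nd percentile of all probe sets. Any 2 arrays correlated at 0.982 to 0.997 across probe sets, and array medians lay between 5.40 and 5.48.

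Ethanol was followed by lower Fos and higher Jun signal in both genotypes. Over both genotypes Fos fell to 0.582 of its saline level, and the 2 Jun probe sets rose 1.71-fold and 1.92-fold. Fosb, Fosl2, Junb and Jund did not pass the test. Fos passed over both genotypes but not within either genotype. No member passed after adjustment for an RNA quality ratio described below. All signals below are log2 RMA values, on which 1 unit is a doubling, and differences are ethanol minus saline unless stated. Each probe set has its own scale, so levels are not compared between probe sets.

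The Fos probe set (1423100_at), for the immediate early gene most used as a marker of neuronal activity, read 9.15, 9.16 and 9.11 in the control saline pools and 8.30, 8.61 and 8.63 in the control ethanol pools. In the Fyn-null saline pools it read 8.78, 9.76 and 9.05, and in the Fyn-null ethanol pools 8.22, 8.06 and 8.51. All 6 ethanol pools lay below all 6 saline pools, with 8.63 the highest ethanol value and 8.78 the lowest saline value. The control saline pools were close together (SD 0.024, n = 3) and the Fyn-null saline pools were wide apart (SD 0.50, n = 3), with replicate 3 the highest of the 12. Over both genotypes the difference was -0.78 ± 0.14 (SE, 6 against 6 pools; 95% interval -1.09 to -0.47; limma, adjusted p = 0.00826). Within control mice it was -0.62 ± 0.20 (adjusted p = 0.134) and within Fyn-null mice -0.94 ± 0.20 (limma, adjusted p = 0.0746), neither of which passed. These standard errors come from the spread of all 12 arrays. In fits of only the groups compared they were 0.11 in control mice (limma adjusted p = 0.0774) and 0.23 in Fyn-null mice (limma adjusted p = 0.154).

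Jun, the strongest transactivator among the Jun proteins, was read by 2 probe sets. Probe set 1448694_at read 7.99, 8.13 and 8.17 in control saline and 8.93, 8.58 and 8.78 in control ethanol pools. It read 8.41, 8.23 and 7.86 in Fyn-null saline and 9.09, 9.03 and 9.04 in Fyn-null ethanol pools. The lowest ethanol pool was above the highest saline pool, and the 3 Fyn-null ethanol pools were the highest of the 12. Probe set 1417409_at read 8.00, 8.02 and 7.65 in control saline and 8.86, 8.57 and 8.80 in control ethanol pools. Its values were 8.16, 8.03 and 7.62 in Fyn-null saline and 8.95, 9.03 and 8.91 in Fyn-null ethanol pools. Here too the 6 saline and 6 ethanol pools did not overlap, and the 2 probe sets correlated at 0.96 across the 12 pools.

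In control mice Jun rose by 0.67 ± 0.13 (1.59-fold, adjusted p = 0.0299) on 1448694_at and by 0.86 ± 0.14 (1.81-fold, limma adjusted p = 0.0166) on 1417409_at. In Fyn-null mice it rose by 0.88 ± 0.13 (1.85-fold, adjusted p = 0.0118) and by 1.03 ± 0.14 (2.04-fold, limma adjusted p = 0.00782). These single-genotype calls were lost after adjustment for an RNA quality ratio described below (limma adjusted p from 0.207 to 0.312) and, in control mice, in a fit of only the control groups (0.0631 and 0.0723). They were also lost with the replicate number as a block (limma adjusted p from 0.0722 to 0.121). Over both genotypes the rises were 0.77 ± 0.09 (adjusted p = 0.000573) and 0.94 ± 0.10 (limma adjusted p = 0.000225). Jun on 1417409_at ranked 29th and on 1448694_at 52nd by p among the 24770 probe sets tested, and Fos ranked 321st.

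**Figure D1:**
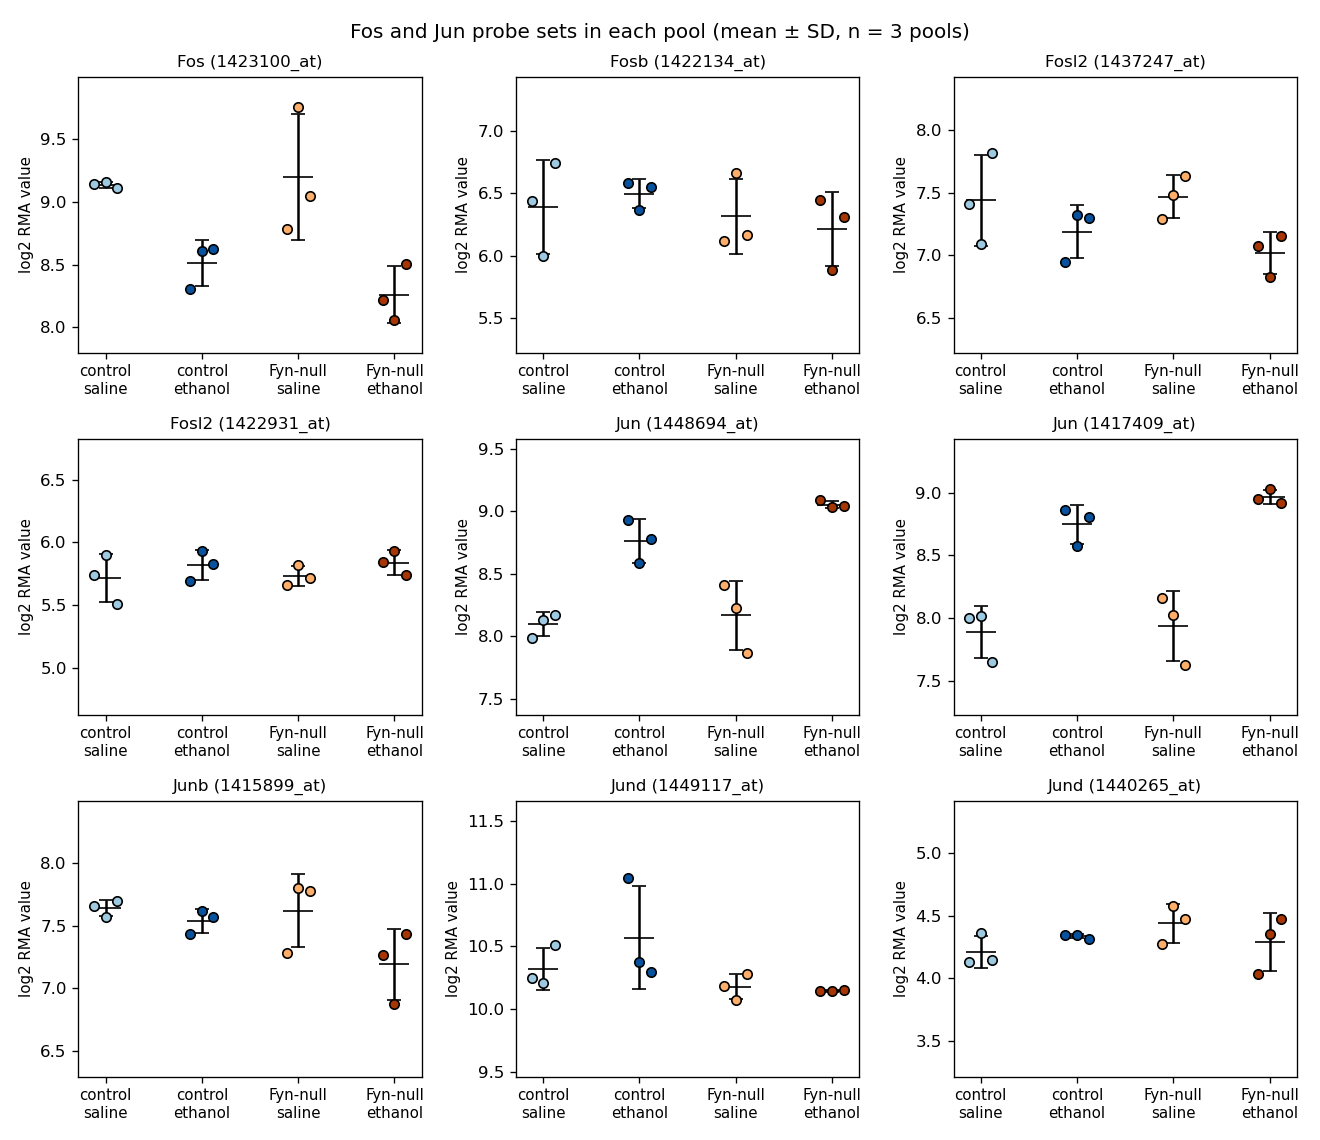
Log2 RMA value of each of the 9 Fos and Jun probe sets (y axis, each panel spanning the same number of log2 units) in the 4 groups (x axis); points are pools, the horizontal bar is the group mean and the whiskers are ± 1 SD (n = 3). Fos lies lower and both Jun probe sets lie higher in all 6 ethanol pools than in all 6 saline pools, and Jund 1449117_at has 1 high pool at 11.04.

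Of the 8 tested probe sets, 2 (both of Jun) were called at an adjusted p under 0.05 in control mice, against 1.43% of all probe sets. In Fyn-null mice 2 (both of Jun) were called, against 0.4%. Over both genotypes 3 were called, against 6.81% of all probe sets. Of these the 2 of Jun were higher, against 2.58% of all, and that of Fos was lower, against 4.22%. Groups of saline and ethanol pools did not overlap in both genotypes for those 3 probe sets, against 6.49% of all. In control mice alone the groups did not overlap for 3 of the 8, against 23% of all, and in Fyn-null mice alone for 4 of the 8, against 18.1%. The median difference of the 8 over both genotypes was 0.05, beside -0.02 for all probe sets, since the members moved in both directions.

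The calls for single genotypes rested on few pools. In control mice the Jun difference on 1448694_at missed the threshold without any 1 of control saline replicates 1, 2 and 3, control ethanol replicates 1 and 4 or Fyn-null ethanol replicate 3 (lowest value 0.58, adjusted p = 0.106, without control ethanol replicate 1), and that on 1417409_at missed it without control saline replicate 3 (0.74, adjusted p = 0.0639) or control ethanol replicate 1 (0.80, limma adjusted p = 0.0650). In Fyn-null mice 1448694_at missed it without any 1 of the 3 ethanol pools (adjusted p up to 0.0663) and 1417409_at without ethanol replicate 2 (limma adjusted p = 0.0535). Fos passed in control mice without Fyn-null saline replicate 3 (adjusted p = 0.0439) and in Fyn-null mice without saline replicate 2 (-1.14, limma adjusted p = 0.0363). Over both genotypes, Fos and Jun passed whichever array was left out. Without both saline pools that stand apart from their labels, the differences over both genotypes were -0.81 for Fos (adjusted p = 0.0233) and 0.71 and 0.90 for Jun (limma adjusted p = 0.000897 and 0.000331), and Jun passed in each genotype.

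The ratio of 3' to 5' signal of the array's RNA quality probe sets moved with treatment. It ranged from 0.54 to 0.99 (log2) in the 6 saline pools and from 0.39 to 0.63 in the 6 ethanol pools. Over all pools it correlated at 0.70 with Fos, and with Jun at -0.68 on 1448694_at and -0.83 on 1417409_at. After adjustment for this ratio, none of the members passed over both genotypes. Fos differed by -0.67 ± 0.25 (limma, adjusted p = 0.455). Jun differed by 0.81 ± 0.16 on 1448694_at and 0.70 ± 0.15 on 1417409_at (limma adjusted p = 0.102 and 0.127). The standard errors without adjustment were 0.14 for Fos and 0.09 and 0.10 for Jun. Since the ratio moved with treatment, this fit separates the 2 poorly, and a lost call does not show that a difference went away. The number of all probe sets called went from 1686 to 27 in the same fit. The part of RNA quality in the Fos and Jun differences was not tested further.

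Markers of some cell types moved with ethanol as well. Of 5 tested endothelial markers 4 fell over both genotypes, against 4.22% of all probe sets, also without both doubted saline pools, and the mean log2 signal of the 5 ranged from 7.21 to 7.42 in saline pools and from 6.58 to 7.00 in ethanol pools. Of 6 microglial markers 1, Aif1, also fell. None of the 5 excitatory neuron, 6 inhibitory neuron, 6 astrocyte or 5 oligodendrocyte markers was called. Of the markers of striatum, which neighbours the dissected cortex, 1 of 3 rose, against 2.58% of all probe sets, and none without both doubted pools. The 1 tested blood marker fell. After adjustment for the RNA quality ratio none of these markers was called, and the endothelial median moved from -0.57 to -0.48. In bulk tissue, fewer cells of a type and less RNA per cell cannot be told apart, and the part of cell composition in the Fos and Jun differences was not tested.

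Fosb, whose truncated protein form accumulates with repeated stimulation, read 6.44, 6.00 and 6.74 in control saline and 6.58, 6.36 and 6.55 in control ethanol pools. In Fyn-null mice it read 6.12, 6.66 and 6.17 after saline and 6.45, 5.89 and 6.31 after ethanol. The groups overlapped in each genotype. The difference over both genotypes was 0.0019 ± 0.14 (95% interval -0.30 to 0.30; limma, adjusted p = 0.995). After adjustment for the RNA quality ratio it was 0.41 ± 0.20 (limma, adjusted p = 0.595).

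Fosl2, which encodes the Fos-related antigen Fra-2, was read differently by its 2 probe sets. Probe set 1437247_at read 7.41, 7.09 and 7.82 in control saline and 6.94, 7.32 and 7.30 in control ethanol pools, which overlapped. In Fyn-null mice it read 7.29, 7.49 and 7.63 after saline and 7.07, 6.83 and 7.16 after ethanol, which did not. The difference over both genotypes was -0.35 ± 0.12 (limma, adjusted p = 0.0949), and without control saline replicate 2 it was -0.44 (limma, adjusted p = 0.0331). The other probe set, 1422931_at, lay between 5.51 and 5.90 after saline and between 5.69 and 5.93 after ethanol, with a difference of 0.10 ± 0.07 (limma, adjusted p = 0.405). Their values correlated at -0.59 across the 12 pools, so no single value is given for the gene. The RNA quality ratio correlated at 0.78 with 1437247_at and at -0.57 with 1422931_at. After adjustment for it the differences over both genotypes were 0.03 ± 0.17 and -0.03 ± 0.12 (limma, adjusted p = 0.984 and 0.976).

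Junb, which encodes a weaker transactivator that can hold Jun activity down, read 7.66, 7.57 and 7.70 in control saline and 7.43, 7.61 and 7.57 in control ethanol pools. In Fyn-null mice it read 7.28, 7.80 and 7.78 after saline and 7.26, 6.88 and 7.43 after ethanol. The groups overlapped in both genotypes, and the lowest Fyn-null saline pool for Junb, replicate 2, was also the lowest for Fos. The difference was -0.10 ± 0.15 in control mice (adjusted p = 0.734) and -0.43 ± 0.15 in Fyn-null mice (limma, adjusted p = 0.294). Over both genotypes it was -0.27 ± 0.11 (95% interval -0.51 to -0.02; limma, adjusted p = 0.168).

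Jund read 10.25, 10.21 and 10.51 in control saline and 11.04, 10.37 and 10.30 in control ethanol pools on probe set 1449117_at. In Fyn-null mice it read 10.18, 10.07 and 10.28 after saline and 10.14, 10.14 and 10.15 after ethanol. Control ethanol replicate 1 was above every other pool by more than the spread of any other group. The difference over both genotypes was 0.11 ± 0.12 (limma, adjusted p = 0.617), and -0.01 without that pool. The other Jund probe set, 1440265_at, was below the filter on mean signal and ranged from 4.03 to 4.58 over the 12 pools.

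**Figure D2:**
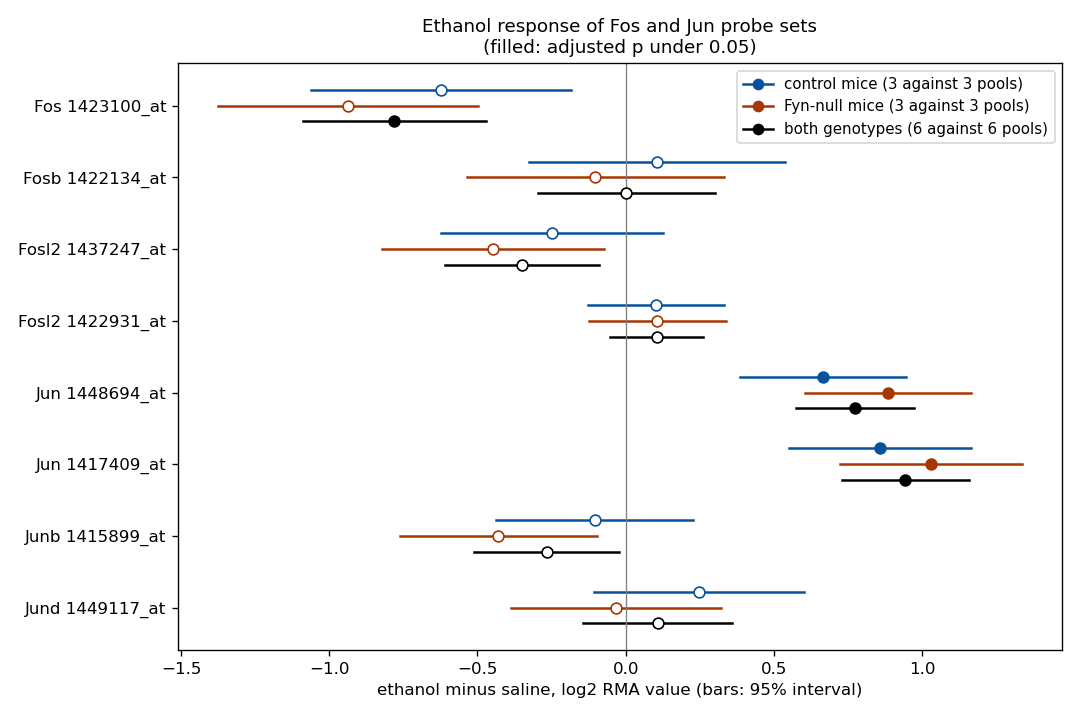
Ethanol minus saline difference in log2 RMA value (x axis) of the 8 tested probe sets (y axis) in control mice, in Fyn-null mice and over both; lines are 95% intervals and filled points have an adjusted p under 0.05. Fos lies below 0 in both genotypes and is filled only over both (-0.78), while both Jun probe sets are filled in each comparison (0.67 to 1.03).

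The next question was whether the response to ethanol depended on genotype. The difference of the ethanol responses, Fyn-null minus control, was tested as an interaction and no member passed. It was -0.31 ± 0.29 for Fos (95% interval -0.93 to 0.31), 0.22 ± 0.18 for Jun on 1448694_at (-0.18 to 0.62) and 0.17 ± 0.20 on 1417409_at (-0.26 to 0.61). For Junb it was -0.33 ± 0.22 (-0.80 to 0.15) and for Jund -0.28 ± 0.23 (-0.78 to 0.22). The adjusted p was at least 0.992 for all 8 probe sets (limma), and their unadjusted p-values were all above 0.05. Over the whole array 0% of probe sets were called, and 4.13% had an unadjusted p under 0.05. The interval for Fos reached -0.93, beyond its response over both genotypes (-0.78), so that equal responses are not shown. Without both saline pools that stand apart from their labels, the interaction on the Jun probe set 1417409_at was -0.05 and no member passed. Single arrays moved these values: the interaction was -0.03 for Fos without Fyn-null saline replicate 3 and -0.52 without Fyn-null saline replicate 2. For Jun it was 0.01 on 1417409_at and 0.07 on 1448694_at without Fyn-null saline replicate 4, for Jund -0.04 without control ethanol replicate 1, and for Junb -0.17 without Fyn-null ethanol replicate 2 and -0.49 without Fyn-null saline replicate 2.

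After saline, the members did not separate the genotypes. Fyn-null minus control differences ran from -0.15 (Jund) to 0.07 (Jun on 1448694_at), all 8 probe sets overlapped, against 5.16% of all probe sets that did not, and each adjusted p was 1.00 (limma). Over all probe sets 0% were called, with 1.89% at an unadjusted p under 0.05. Without both doubted saline pools, 44 probe sets of the array were called and no member. The Jun differences were then 0.27 ± 0.14 on 1417409_at (adjusted p = 0.678) and 0.24 ± 0.13 on 1448694_at (limma, adjusted p = 0.701). Jund was then at -0.25, Fosl2 on 1437247_at at -0.23, and Fos at 0.14, none of which passed.

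After ethanol, Fyn-null pools were higher than control pools on both Jun probe sets without overlap, by 0.29 ± 0.13 (adjusted p = 0.347) and 0.22 ± 0.14 (limma, adjusted p = 0.533). The Jund probe set was lower without overlap, by -0.43 ± 0.16 (limma, adjusted p = 0.279), with control ethanol replicate 1 the farthest from the rest. Without that pool it was -0.19 (limma, adjusted p = 0.514). Junb was lower in Fyn-null mice by -0.35 ± 0.15 with groups that met at 7.43 (limma, adjusted p = 0.343), and Fos by -0.25 ± 0.20 (limma, adjusted p = 0.623). None of these passed. Groups did not overlap for 3 of the 8 members, beside 20.3% of all probe sets, and an unadjusted p under 0.05 was seen for 3 of the 8 and for 13.6% of all, with 0% called after adjustment.

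Across the 12 pools, Fos and Jun ran in opposite directions, with r = -0.84 on Jun probe set 1448694_at and -0.83 on 1417409_at. After each group's mean was subtracted, these values were -0.19 and -0.10, so the relation lay mostly between treatments and not between pools of 1 group. Fos and Junb ran together, with r = 0.80, and 0.75 after subtraction of group means. Fosl2 on 1437247_at followed Junb (r = 0.78, and 0.65 after subtraction) and Fos (r = 0.71, and 0.34 after subtraction). It ran against Jun on 1417409_at (r = -0.81, and -0.79 after subtraction) and on 1448694_at (r = -0.73, and -0.39 after subtraction). These correlations are descriptions over 12 pools that share arrays, RNA quality and treatment.

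The genes with the pattern most like each member over the 12 pools were ranked among 12323 genes, each by its probe set with the highest mean. For Fos they were Egr1 (r = 0.98), Egr2 (0.97) and Nr4a1 (0.96), all immediate early transcription factor genes, and after subtraction of group means the values were still 0.96, 0.91 and 0.93. Fyn-null saline replicate 3, the highest pool for Fos, was also the highest for Egr1. For Jun the nearest were Cyp1b1 (0.98), Txnip (0.98) and Pik3ip1 (0.97), an oxidase of the cytochrome P450 family, a thioredoxin-binding protein and an inhibitor of phosphoinositide 3-kinase. The nearest to Junb were Nsd2 (0.93), Aldh18a1 (0.92) and Nr4a1 (0.92). Fosl2 was nearest to Tnfaip3 (0.96), Cdh22 (0.95) and Galnt9 (0.95). Fosb was nearest to Tulp3 (0.87), Eif1a (0.84) and Kcnf1 (0.83), and Jund to N6amt1 (0.97), Dlgap2 (0.95) and Abhd17b (0.92). Control ethanol replicate 1, the high pool for Jund, was also the highest pool for N6amt1 (7.07), Dlgap2 (7.91) and Abhd17b (9.72). The Jund correlations thus lean on that pool, and they were not computed without it.

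**Figure D3:**
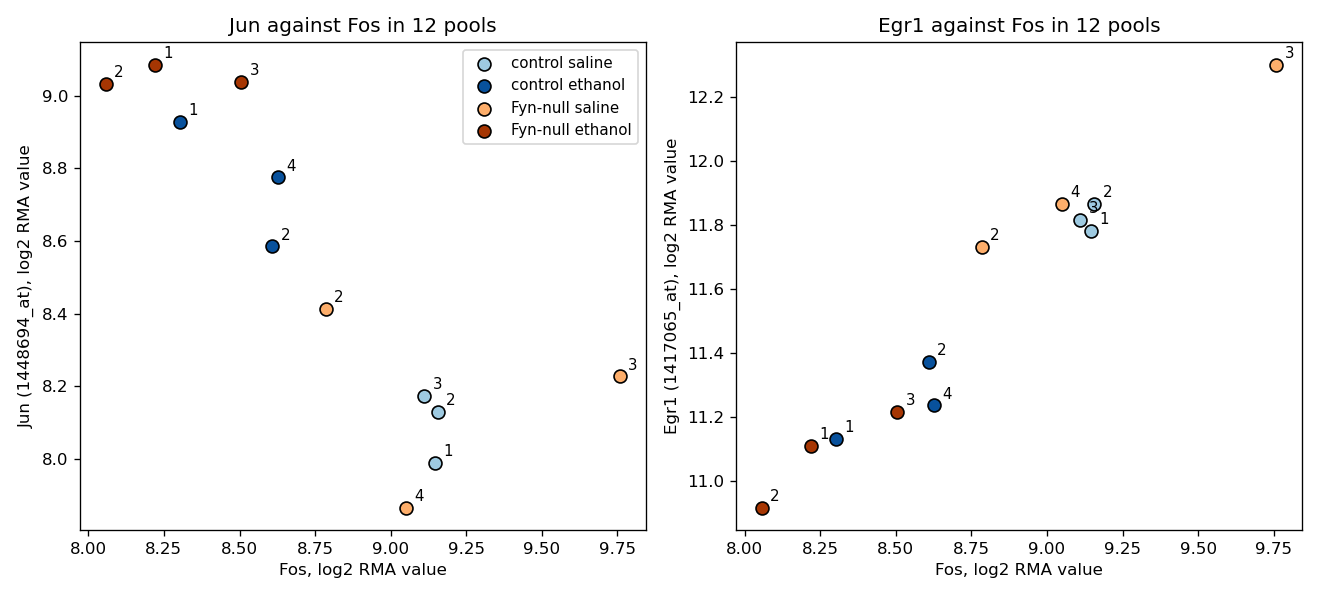
Log2 RMA value of Jun (left, y axis) and of Egr1 (right, y axis) against that of Fos (x axis) in the 12 pools, coloured by group and numbered by replicate. Jun falls as Fos rises between treatments (r = -0.84), and Egr1 rises with Fos (r = 0.98, and 0.96 after group means are subtracted). The value after subtraction pools the groups, of which Fyn-null saline spans most of the Fos axis (8.78 to 9.76) and control saline little (9.11 to 9.16).

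Lists of related genes were compared with the members over both genotypes, beside the median difference of all probe sets of -0.02. Of 15 tested basic leucine zipper genes that can pair with or compete with Fos and Jun proteins, 1 rose, 1 fell and 13 did not pass, with a median difference of -0.03. Over all probe sets 2.58% were called higher and 4.22% lower. Cebpd, an acute-phase and glucocorticoid-induced C/EBP factor, read 4.47 to 5.19 in saline pools and 5.63 to 5.96 in ethanol pools and rose by 1.05 ± 0.13 (limma, adjusted p = 0.000583). Most of its saline pools lay below 4.89, the mean of a probe set (Drd2) that the filter on low mean signal removed. Cebpd thus passed that filter only through its ethanol pools, and its rise starts from low signal. Mafg, a small Maf protein without a transactivation domain, fell by 0.38 (limma, adjusted p = 0.0126). After adjustment for the RNA quality ratio Cebpd was still called and Mafg was at -0.13 (limma, adjusted p = 0.777). The stress-response factors Atf4 (-0.23, adjusted p = 0.0865) and Atf5 (-0.24, limma adjusted p = 0.0927) were next by p.

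The 3 counts that follow, of 1 gene each, stand beside the 4.22% of all probe sets called lower. Of 13 tested kinases that signal to Fos and Jun, 1 fell (Rps6ka3, the ribosomal S6 kinase Rsk2 that phosphorylates Fos and CREB, -0.36, limma adjusted p = 0.0198) and 12 did not pass, with a median of -0.05. Next by p were Mapk14, the p38 kinase (-0.23), Rps6ka5, the kinase Msk1 (0.23), and Map3k12, a kinase upstream of JNK (-0.12; limma adjusted p from 0.0688 to 0.144). Of 14 factors and coactivators that act on the Fos and Jun promoters, 1 fell (Crtc2, a CREB coactivator, -0.23, limma adjusted p = 0.0284) and 13 did not pass, with a median of -0.09. Next were Elk3, a ternary complex factor (-0.23), Creb1 (-0.22) and Sp1 (-0.18; limma adjusted p from 0.0701 to 0.122). Of 10 genes with textbook AP-1 sites, 1 fell (Vegfa, the vascular growth factor, -0.30, limma adjusted p = 0.0291), none rose and 9 did not pass, with a median of -0.07. Penk, which encodes the precursor of enkephalins, differed by -0.27 (limma, adjusted p = 0.0630). After adjustment for the RNA quality ratio Rps6ka3 was at -0.17 (adjusted p = 0.747), Crtc2 at -0.18 (adjusted p = 0.608) and Vegfa at -0.18 (limma, adjusted p = 0.731). Crtc2 missed the threshold in 10 of 19 alternatives and Vegfa in 11 of 20, among them the fit without both doubted saline pools (limma adjusted p = 0.0621 and 0.0584) and fits without various single arrays.

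Most of the other neuronal immediate early genes listed lay on the side of Fos, though fewer were called. Of 15 tested, 6 fell, against 4.22% of all probe sets, and none rose. Of the 15, 14 had a difference below 0, against 56.3% of all probe sets, and their median was -0.28. The activity-dependent transcription factor Npas4 differed by -1.54 (adjusted p = 0.000192), Egr2 by -1.20 (adjusted p = 0.00851) and Egr1 by -0.73 (limma, adjusted p = 0.00156). Arc, which acts at synapses, differed by -0.83 (adjusted p = 0.0472), the nuclear receptor gene Nr4a1 by -0.46 (adjusted p = 0.0419) and the neurotrophin gene Bdnf by -0.36 (limma, adjusted p = 0.0466). Arc and Bdnf were added to the named genes after their values were seen. Near the threshold, Nr4a1 missed it in 15 of 20 alternatives, Arc in 16 and Bdnf in 14, most of them fits without a single array. Without both doubted saline pools 5 of the 15 fell, and after adjustment for the RNA quality ratio none did, though 14 were still below 0. In that adjusted fit Npas4 differed by -1.36 (adjusted p = 0.105) and Egr1 by -0.62 (limma, adjusted p = 0.260).

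**Figure D4:**
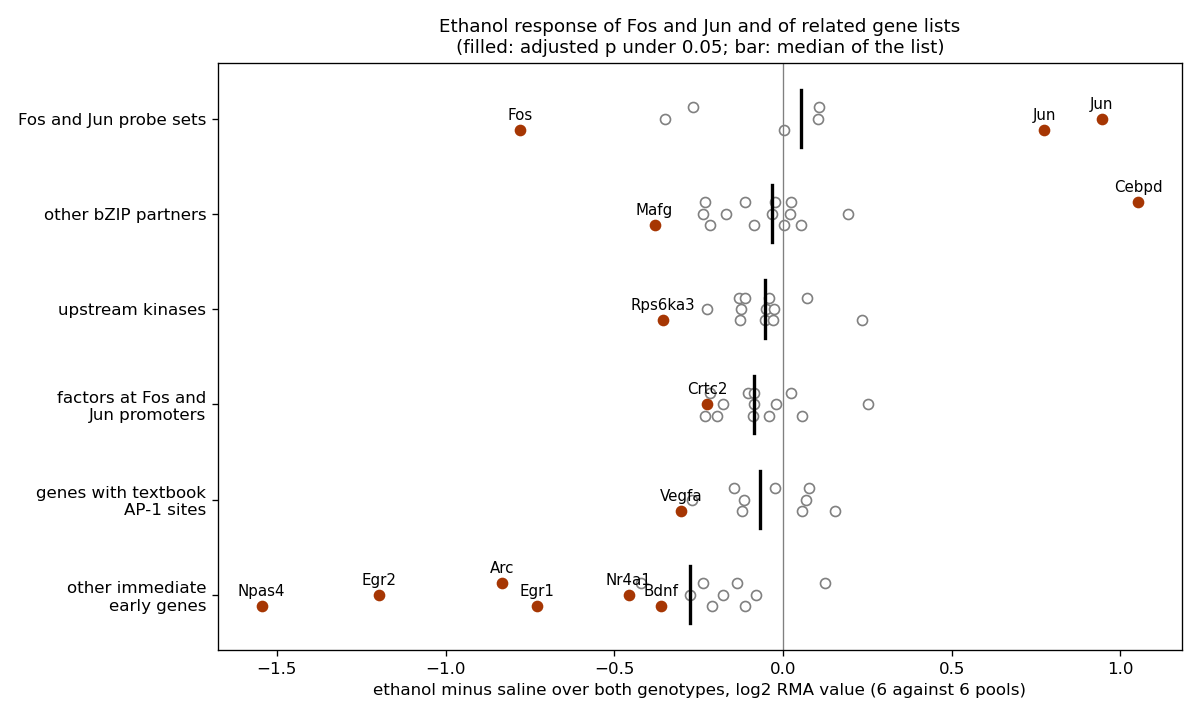
Ethanol minus saline difference over both genotypes in log2 RMA value (x axis) for the Fos and Jun probe sets and for 5 lists of related genes (y axis); filled points have an adjusted p under 0.05 and the vertical bar is the median of the list. Fos lies below 0 with 14 of the 15 other immediate early genes, of which 6 are filled, and the Jun probe sets and Cebpd lie above 0. Cebpd passed the filter on low mean signal only through its ethanol pools.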

How the data were processed

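The deposited values are log2 expression values per probe set that the authors computed from the scanned arrays with RMA (robust multi-array average, which corrects background, normalizes by quantiles and summarizes probes), run with the affy package. RMA normalizes the arrays to each other before it summarizes probes, so a shift of total RNA cannot be seen. No scanner files were used here, and arrays have no read depth, so the 3 arrays per group limit the precision.

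Groups and replicate numbers came from the labels. Control probe sets (64) were left out, and the 45% of probe sets with the lowest mean over all arrays were removed, which left 24770. Differences were tested with limma 3.58.1 (lmFit and eBayes) in R 4.3.3, in 1 fit of the 4 groups for the comparisons within a genotype or treatment and their interaction, and in a fit of genotype plus treatment for ethanol over both genotypes. P-values were adjusted by Benjamini-Hochberg over all tested probe sets and called under 0.05. The code was tested on simulated data. The median standard error was 0.108 for 3 against 3 and 0.0764 for 6 against 6 pools.

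The labels call the arrays biological replicates and tie each to 3 mice. They also give 24 mice per genotype and 12 per genotype and treatment, more than 3 pools of 3 mice hold. Replicate numbers reach 4 though each group has 3 arrays, and the reason was not examined. Replicate numbers were used only as an alternative block. Platform symbols named 34958 probe sets with 1 gene, 932 with several and 9211 with none, and a probe set with several was not used as a member. The members, the related gene lists and the marker lists were chosen with earlier results of these data known. Alternatives changed the filter (none, or 60%), normalization, block, eBayes settings, array weights, groups fitted and arrays included. Leaving out both saline pools in doubt and the 3' to 5' covariate were chosen after seeing the data. Named genes were all members, up to 4 genes of each related list by smallest p over both genotypes, and the 3 genes most like each member by Pearson correlation.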

Additional observations from a re-analysis of the deposited data

How the results depend on the processing

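Over both genotypes, Fos and both Jun probe sets passed under 19 of 20 alternatives, the exception being the 3' to 5' covariate. No member passed in the interaction or in either comparison of genotypes under any alternative run. In 21 alternatives, 12 left out 1 array each. Fitting only the groups compared was not run for the interaction or for ethanol over both genotypes, since these use all groups. The number of arrays limits all calls: differences of several standard errors, such as that of Fos in Fyn-null mice, missed the adjusted threshold. Where a value moved, the cause was not tested.

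Adjusting for the 3' to 5' ratio left 16, 15 and 27 probe sets called for ethanol in control mice, in Fyn-null mice and over both, against 355, 99 and 1686, and 0 members in each. In that fit Jun (1417409_at, then 1448694_at) was 0.64 and 0.71 in control mice, 0.78 and 0.94 in Fyn-null mice and 0.70 and 0.81 over both, and Fos over both was -0.67. Uncalled members changed sign there: in control mice Junb (0.041), Fosl2 on 1422931_at (-0.021) and on 1437247_at (0.092), in Fyn-null mice Fosb (0.32), Fosl2 on 1422931_at (-0.034) and Jund (0.053), over both Fosl2 (-0.027 and 0.026), in the interaction Fosl2 on 1422931_at (-0.013), and after saline Fosl2 on 1437247_at (-0.069).

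Replicate numbers gave no clear pairing of the arrays, though so few arrays cannot exclude one. Among 13 pairs of arrays with the same number, the deviations from group means correlated at -0.43 to 0.32 and above 0.1 in 3. An array lay nearest to one of its own number in 2 cases of 12. With the replicate block, 36, 26 and 710 probe sets were called for ethanol in control mice, in Fyn-null mice and over both, with 0 members in either genotype. Jun was then 0.89 and 0.74 in control mice and 0.95 and 0.81 in Fyn-null mice (limma adjusted p from 0.0722 to 0.121), and after saline Fosb (0.0023) and Fosl2 on 1437247_at (-0.054) changed sign.

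Fitting only the groups compared gave 18 called probe sets and 0 members for ethanol in control mice, with Jun at 0.86 and 0.67 (limma adjusted p = 0.0631 and 0.0723), and 193 called after ethanol. Further quantile normalization gave 155 called in Fyn-null mice and turned Fosb over both to -0.0015. Trended and robust variances gave 1 called after ethanol.

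Array weights gave 1371 called in Fyn-null mice and 1383 after ethanol. Fos in Fyn-null mice was then -0.98 (limma adjusted p = 0.0161). Values near 0 changed sign for Jund in Fyn-null mice (0.014), Fosl2 on 1422931_at in the interaction (-0.065) and after ethanol (-0.057), and Junb (0.016) and Fosb (0.089) after saline.

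Without both doubted saline pools, 147, 54, 44 and 260 probe sets were called for ethanol in control mice, for ethanol in Fyn-null mice, after saline and after ethanol. Signs changed for Fosb in control mice (-0.092) and over both (-0.13), Jund in Fyn-null mice (0.017), Jun on 1417409_at (-0.051) and Fosl2 (-0.094 and 0.056) in the interaction, and Fosl2 on 1437247_at after saline (-0.23).

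Leaving out 1 array at a time gave 76 to 410 called probe sets and 0 to 3 members for ethanol in control mice, 33 to 145 and 0 to 3 in Fyn-null mice, 770 to 1625 over both and 0 to 35 after ethanol. In control mice Jun ranged from 0.74 to 0.94 on 1417409_at and from 0.58 to 0.75 on 1448694_at, Fos from -0.68 to -0.52, Fosb from -0.092 to 0.28 and Fosl2 on 1422931_at from -0.00097 to 0.19. In Fyn-null mice Jun ranged from 0.87 to 1.14 and from 0.73 to 1.01, Fos from -1.14 to -0.66, Fosb from -0.22 to 0.070 and Jund from -0.085 to 0.017. Over both, Fosb ranged from -0.098 to 0.090 and Jund from -0.013 to 0.15, and the interaction on Fosl2 1422931_at from -0.086 to 0.11. After saline Fos ranged from -0.22 to 0.27, Jun from -0.072 to 0.20 and from -0.052 to 0.22, Junb from -0.11 to 0.15, Fosb from -0.27 to 0.10 and Fosl2 from -0.15 to 0.22 and from -0.087 to 0.11. After ethanol Fosl2 on 1422931_at ranged from -0.042 to 0.078.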
